A study of Mus musculus with 12 samples.

Results

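The genes described here were 10 genes of the Wnt pathway. They included the ligands Wnt4 and Wnt5a, the secreted Dickkopf genes Dkk2 and Dkk3, the secreted antagonist Notum and the receptor gene Lgr5. The others were the intracellular inhibitors Axin2 and Nkd1, and the transcription factor genes Lef1 and Tcf7. The 10 were chosen by name, with earlier results of these data known, among 19718 genes with a named probe on single-colour Agilent mouse arrays. Counts of them set beside the shares over all genes are therefore only descriptive. All 10 had at least 1 probe. Cells of 4 groups were compared, with 3 biological replicates each and 12 arrays in all. OS-treated MEFs were male mouse embryonic fibroblasts (MEFs) from crosses of Vasa::RFP and Oct4ΔPE-GFP transgenic C57BL/6 mice, transfected with Oct4 and Sox2 vectors and with Dnmt1 siRNA (Dnmt1-KD), given chem (tranylcypromine, BIX-01294 and DZNep, inhibitors of histone demethylation and histone methylation) and VA5 (the deacetylase inhibitor valproic acid and ALK5i, an inhibitor of a TGF-β receptor), and collected on day 4. OCKS-treated MEFs, by their labels, had the same treatment with a vector for Oct4, c-Myc, Klf4 and Sox2. E15.5 PGCs were germ cells of female genital ridges from a cross of MCH and Oct4ΔPE-GFP mice. Control MEFs had the same origin as the treated ones. PGCs and control MEFs therefore differed in sex and strain as well as in cell type. By the paper's methods the MEFs also came from younger embryos than the PGCs. The sources used here do not say whether the control MEFs were transfected, which of the 2 MEF media described was used for them, or whether transfected cells were selected.

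Wnt proteins are lipid-modified secreted ligands that bind Frizzled receptors. In the canonical branch of the pathway, ligand binding keeps beta-catenin from being degraded, and beta-catenin then binds TCF/LEF factors on its target genes. Axin2, Nkd1, Notum, Lgr5, Lef1 and Tcf7 are known as targets of beta-catenin in many tissues, and Axin2, Nkd1 and Notum feed back to restrain the pathway. In the fetal ovary Wnt4 is made by somatic cells.

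Signals are given as the log2 signal relative to the 75th percentile of the array, with the brightest probe standing for each gene, so that levels can be compared between groups for 1 gene but not between genes. Genes are described as having risen or fallen where the change was at least 2-fold and the limma p, adjusted over all genes tested by the Benjamini-Hochberg method, was under 0.001. The 10 genes were well above background on all 12 arrays, except Dkk2, which was so on 1 of the 3 PGC arrays. On each array 71.9% to 85.6% of spots were well above background and 0 were saturated. Dnmt1, the gene knocked down, changed by -2.05 on the log2 scale in OS-treated and by -2.34 in OCKS-treated MEFs. Of the delivered factors, Pou5f1 (Oct4) rose by 5.78 in OS-treated MEFs, but in OCKS-treated MEFs it changed by 0.84 (adjusted p = 0.0777). OCKS-treated differed from OS-treated MEFs by -4.95 on the log2 scale for Pou5f1 (adjusted p = 0.00214). Sox2 changed by 0.24 with OS and 1.30 with OCKS, and Klf4 by -0.029 and -0.22, none past the thresholds. Myc rose by 1.57 with OS, whose vectors carry no c-Myc by the labels, and by 1.30 with OCKS. The arrays labelled OCKS thus did not show higher Pou5f1, Sox2 or Klf4 past the thresholds. Whether these probes lie within the delivered sequences was not checked, and OCKS-treated stands below for the label. Scaling the arrays by RNA spike-ins, in place of the 75th percentile, put the median change of all genes against control MEFs at 0.61 in place of -0.19 in OS-treated MEFs, at 0.15 in place of -0.17 in OCKS-treated MEFs and at -0.12 in place of 0.22 in PGCs. The share of calls that were higher was then 87.2% in place of 45.9% in OS-treated MEFs, 67.4% in place of 44.6% in OCKS-treated MEFs and 44.3% in place of 53.6% in PGCs. Control MEFs shared no slide with treated MEFs, so slide and treatment cannot be told apart there.

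Of the 10 genes, 5 were lower and 0 higher in OS-treated MEFs than in control MEFs. Of all 16266 genes tested there 23.4% passed the thresholds, 12.6% lower and 10.7% higher. In OCKS-treated MEFs 3 of the 10 were lower and 0 higher than in the same control arrays, where 25.2% of 16158 genes passed, 14.0% lower and 11.2% higher. Wnt4, Axin2 and Nkd1 fell in both, and Tcf7 and Notum were past the thresholds in OS-treated MEFs. In PGCs against the same control arrays 2 genes rose, Nkd1 and Tcf7, and 6 fell, Wnt4, Wnt5a, Dkk2, Dkk3, Lgr5 and Notum, while 56.3% of 17366 genes passed, 30.2% higher and 26.1% lower. All 3 comparisons use the same control MEF arrays, so they are not independent of each other.

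**Figure D1:**
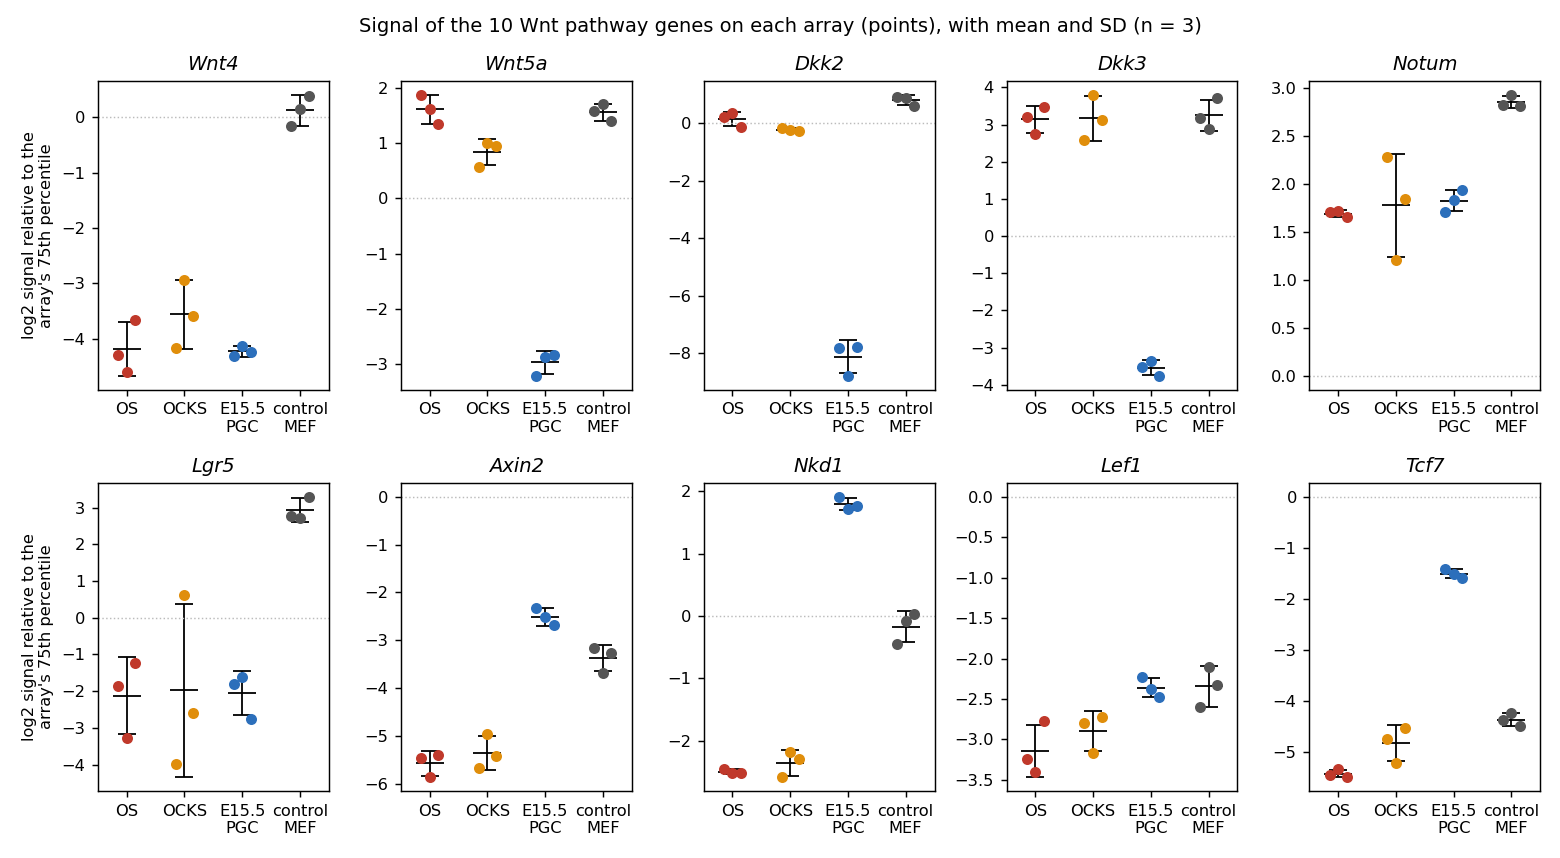
Log2 signal of each gene over the array's 75th percentile (vertical axis, a scale of its own in each panel) on each of the 3 arrays of OS-treated MEFs, OCKS-treated MEFs, E15.5 PGCs and control MEFs (points), with the group mean and SD (bars). On all 6 arrays of treated MEFs, Wnt4, Axin2, Nkd1, Lgr5, Notum, Lef1, Tcf7 and Dkk2 lie lower than on any control MEF array. The share of all genes with such a gap was not counted. OCKS replicate 2 has an Lgr5 signal of 0.63, above the other arrays of treated MEFs.

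Wnt4 encodes a ligand that acts in kidney and gonad development. Its log2 signal was -4.30, -4.60 and -3.65 in OS-treated MEFs, -4.17, -2.93 and -3.58 in OCKS-treated MEFs, -4.31, -4.12 and -4.24 in PGCs, and -0.16, 0.14 and 0.39 in control MEFs. All 9 arrays of treated MEFs and PGCs lay below the 3 control arrays, and the ranges of these 3 groups overlapped. Wnt4 was 19.8-fold lower in OS-treated MEFs (log2 change -4.31, SE 0.311, adjusted p = 1.22e-06, limma), 12.9-fold lower in OCKS-treated MEFs (-3.69, SE 0.311, adjusted p = 3.40e-06) and 20.4-fold lower in PGCs (-4.35, SE 0.311, adjusted p = 1.84e-07). With the spike-in scaling these changes were -3.51, -3.36 and -4.69.

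Wnt5a, the ligand of the beta-catenin-independent branch that signals through Ror2, had a different order. It measured 1.87, 1.62 and 1.35 in OS-treated MEFs, 0.57, 1.01 and 0.94 in OCKS-treated MEFs, -3.21, -2.86 and -2.82 in PGCs, and 1.58, 1.70 and 1.40 in control MEFs. OS-treated and control MEFs overlapped (log2 change 0.05, 95% interval -0.33 to 0.43, adjusted p = 0.798, limma), although the change was 0.85 with the spike-in scaling (adjusted p = 0.00335). The OCKS-treated arrays lay below both, with a change of -0.72 against control MEFs (SE 0.170, adjusted p = 0.00354) that reached neither the 2-fold minimum nor the threshold on p. In PGCs Wnt5a was 23.0-fold lower (-4.52, SE 0.170, adjusted p = 1.01e-09).

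Notum encodes an enzyme that removes the lipid from Wnt proteins and so inactivates them. Its signal was 1.70, 1.72 and 1.65 in OS-treated MEFs, 2.28, 1.21 and 1.84 in OCKS-treated MEFs, 1.71, 1.83 and 1.94 in PGCs, and 2.82, 2.93 and 2.81 in control MEFs. Control MEFs were the highest on all 3 arrays, and the other groups overlapped each other. Notum fell by 1.16 on the log2 scale in OS-treated MEFs (SE 0.211, adjusted p = 0.000715) and by 1.03 in PGCs (adjusted p = 0.000937), close to the 2-fold minimum. In OCKS-treated MEFs the change was -1.08 and missed the threshold on p (adjusted p = 0.00111), which it passed without OCKS replicate 1 (-1.33, adjusted p = 9.7e-05). With the spike-in scaling the changes were -0.37 in OS-treated MEFs (adjusted p = 0.301), -0.75 in OCKS-treated MEFs (adjusted p = 0.0522) and -1.37 in PGCs (adjusted p = 0.000877). Leaving out any 1 array of OS-treated MEFs, PGCs or control MEFs, or OCKS replicate 3, ended the calls of Notum in both OS-treated MEFs and PGCs, with adjusted p between 0.00136 and 0.0049.

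Dkk2 and Dkk3 encode secreted Dickkopf proteins. Dkk2 binds the Wnt co-receptors Lrp5 and Lrp6, whereas Dkk3 is a divergent family member. Dkk2 measured 0.23, 0.36 and -0.14 in OS-treated MEFs, -0.14, -0.21 and -0.28 in OCKS-treated MEFs, -7.80, -8.78 and -7.79 in PGCs, and 0.93, 0.90 and 0.61 in control MEFs. Its arrays of treated MEFs lay below those of control MEFs, by -0.66 with OS (adjusted p = 0.0353) and by -1.02 with OCKS (adjusted p = 0.00384), and neither difference was past the thresholds, though the OCKS one was without PGC replicate 2 (adjusted p = 0.00018). With the spike-in scaling the OS difference was 0.13, on the other side of 0. In PGCs, where 1 of 3 arrays was well above background, Dkk2 fell, but the size of the change was poorly measured, at -8.94 on the log2 scale (adjusted p = 1.12e-10) and -5.51 with normexp and quantile normalization. It was not tested there when both groups had to be well above background.

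Dkk3 measured 3.20, 2.74 and 3.48 in OS-treated MEFs, 2.59, 3.79 and 3.11 in OCKS-treated MEFs, -3.52, -3.36 and -3.76 in PGCs, and 3.18, 2.88 and 3.71 in control MEFs. The 3 groups of MEFs overlapped, with log2 changes against control MEFs of -0.12 with OS (95% interval -0.81 to 0.58) and -0.09 with OCKS (-0.79 to 0.61), which turned to 0.68 and 0.24 with the spike-in scaling. In PGCs it was 112-fold lower (-6.80, SE 0.314, adjusted p = 4.99e-09).

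Lgr5 encodes a receptor for R-spondins, which enhance Wnt signalling, and marks stem cells of several epithelia. It measured -1.86, -3.29 and -1.23 in OS-treated MEFs, -3.99, 0.63 and -2.59 in OCKS-treated MEFs, -1.80, -1.60 and -2.75 in PGCs, and 2.78, 2.72 and 3.30 in control MEFs. All 9 arrays of treated MEFs and PGCs were below the control arrays, but Lgr5 had the widest spread of the 10 genes in OCKS-treated MEFs (SD 2.37). The changes were -5.06 with OS (SE 0.974, adjusted p = 0.00105) and -4.92 with OCKS (adjusted p = 0.0012), both short of the threshold on p, and -4.98 in PGCs (adjusted p = 0.000666), which was past it. Both treatments passed with the spike-in scaling (adjusted p = 0.000541 with OS and 0.000407 with OCKS) and with normexp and quantile normalization (0.000207 and 0.000285). Without OCKS replicate 2, the array with the signal of 0.63, Lgr5 was past the thresholds with OS (adjusted p = 3.7e-05, and 0.000368 without OCKS replicate 1) and with OCKS (-6.22, adjusted p = 2.4e-05). The call in PGCs was lost without any 1 array of PGCs or control MEFs, without OS replicate 1 and without OCKS replicate 3 (adjusted p between 0.00112 and 0.00364).

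Axin2, the scaffold of the complex that degrades beta-catenin, and Nkd1, which binds the cytoplasmic transducer Dishevelled, had the same order of groups. Axin2 measured -5.46, -5.87 and -5.39 in OS-treated MEFs, -5.67, -4.97 and -5.43 in OCKS-treated MEFs, -2.33, -2.52 and -2.69 in PGCs, and -3.17, -3.69 and -3.27 in control MEFs. PGCs were the highest, control MEFs came next, and the treated groups were lowest and overlapped each other. Axin2 was 4.58-fold lower with OS (log2 change -2.20, SE 0.208, adjusted p = 7.80e-06) and 3.94-fold lower with OCKS (-1.98, SE 0.208, adjusted p = 1.56e-05). In PGCs it was 0.86 above control MEFs (95% interval 0.40 to 1.33, adjusted p = 0.00272), short of both the 2-fold minimum and the threshold on p. A dimmer probe of Axin2, well above background on 1 of 3 arrays in each treated group, differed from control MEFs by -1.49 with OS, -0.82 with OCKS and 0.61 in PGCs.

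Nkd1 measured -2.45, -2.52 and -2.52 in OS-treated MEFs, -2.59, -2.18 and -2.29 in OCKS-treated MEFs, 1.92, 1.72 and 1.76 in PGCs, and -0.46, -0.09 and 0.03 in control MEFs. It was 5.01-fold lower with OS (-2.32, SE 0.140, adjusted p = 3.76e-07), 4.54-fold lower with OCKS (-2.18, adjusted p = 5.46e-07) and 3.92-fold higher in PGCs (1.97, SE 0.140, adjusted p = 1.79e-07). The ranges of PGCs, control MEFs and treated MEFs did not overlap, and those of the OCKS-treated and OS-treated MEFs did. A dimmer probe of Nkd1 differed by -0.79, -0.55 and 0.78 in the OS, OCKS and PGC comparisons. With the spike-in scaling the changes of the brighter probes were -1.40 and -1.65 for Axin2 and -1.53 and -1.86 for Nkd1 with OS and OCKS, all 4 still past the thresholds.

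Lef1 and Tcf7 encode TCF/LEF factors, which carry beta-catenin to DNA, and they differed in PGCs. Lef1 measured -3.24, -3.41 and -2.78 in OS-treated MEFs, -2.80, -3.17 and -2.72 in OCKS-treated MEFs, -2.23, -2.38 and -2.47 in PGCs, and -2.60, -2.10 and -2.33 in control MEFs. PGCs and control MEFs overlapped (log2 change -0.01, 95% interval -0.44 to 0.41), and the arrays of treated MEFs lay lower, by -0.80 with OS (adjusted p = 0.00379) and -0.55 with OCKS (adjusted p = 0.0248), neither past the thresholds. These differences with the spike-in scaling were -0.0024 (adjusted p = 0.995) and -0.22 (adjusted p = 0.545).

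Tcf7 measured -5.44, -5.33 and -5.48 in OS-treated MEFs, -4.75, -5.21 and -4.52 in OCKS-treated MEFs, -1.41, -1.52 and -1.59 in PGCs, and -4.37, -4.24 and -4.48 in control MEFs. The 4 groups did not overlap, with PGCs highest and OS-treated MEFs lowest. Tcf7 was 7.23-fold higher in PGCs (2.85, SE 0.154, adjusted p = 1.81e-08), and its dimmer probe differed by 3.20 there. In OS-treated MEFs it fell by 1.05 on the log2 scale (adjusted p = 0.000166), close to the 2-fold minimum, by 0.99 without control MEF replicate 2 (adjusted p = 0.00108) and by 0.26 with the spike-in scaling (adjusted p = 0.438). In OCKS-treated MEFs it changed by -0.46 (adjusted p = 0.0217). The dimmer probe differed from control MEFs by -0.44 with OS and -0.24 with OCKS. It was well above background on 0 OS arrays, 1 OCKS array and 2 control MEF arrays.

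**Figure D2:**
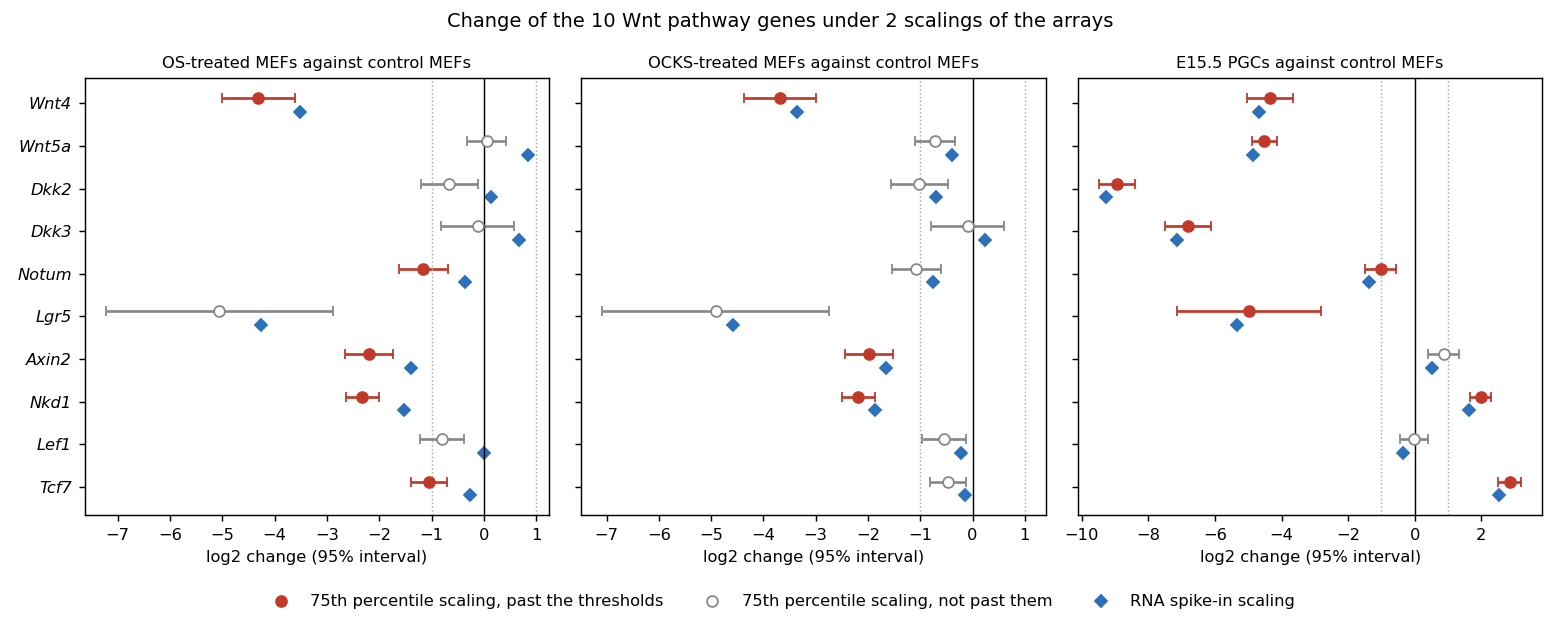
Log2 change of each gene in OS-treated MEFs, OCKS-treated MEFs and E15.5 PGCs against control MEFs, with 95% intervals from limma (circles, filled where past the thresholds), and the same change with the arrays scaled by RNA spike-ins (diamonds). Dotted lines mark a 2-fold change. Wnt4, Axin2 and Nkd1 lie beyond it on the lower side with both treatments and both scalings, while Tcf7 and Notum with OS lie inside it with the spike-ins.

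The treatments were also compared with each other. OCKS-treated against OS-treated MEFs differed past the thresholds for 0 of the 10 genes and 0 of all 15707 genes tested (0%), although 2770 genes had an unadjusted p under 0.05 (limma). The groups did not overlap for Tcf7 (0.59 higher with OCKS, 95% interval 0.25 to 0.94, adjusted p = 0.135), Wnt5a (-0.77, 95% interval -1.15 to -0.39, adjusted p = 0.108) and, with nearest arrays at -0.14 in each group, Dkk2 (-0.36, 95% interval -0.91 to 0.18, adjusted p = 0.475). The share of all genes without overlap was not counted, so the lack of overlap does not set these genes apart from others. Within the slide that held OS replicate 1 and OCKS replicate 1, the differences of these 3 genes were 0.69, -1.30 and -0.37. Over all arrays and scaled by spike-ins they were 0.12 for Tcf7 (adjusted p = 0.716), -1.24 for Wnt5a (adjusted p = 0.0104) and -0.83 for Dkk2 (adjusted p = 0.0753). For Wnt4 the difference was 0.62 (95% interval -0.07 to 1.31) and 0.15 with the spike-in scaling, and for Axin2 and Nkd1 it was 0.22 and 0.14, which turned to -0.25 and -0.33 with the spike-in scaling.

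PGCs and control MEFs shared a slide for replicates 2 and 3 of both groups. Within it the changes of Nkd1 and Tcf7 were 1.77 and 2.80, those of Wnt4, Wnt5a, Dkk2, Dkk3 and Lgr5 were -4.45, -4.39, -9.04, -6.85 and -5.19, and that of Notum was -0.99. Each had the sign it had over all arrays.

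A list of 28 genes known as beta-catenin targets in some tissue was also followed. It includes 6 of the 10 genes, which are part of its counts below and are not compared with them independently. Axin2, Nkd1, Notum and Tcf7 are among those that fell with OS, and Axin2 and Nkd1 among those that fell with OCKS. No count was made without the 6. In OS-treated MEFs 12 of the 25 that were tested fell and 4 rose, while 12.6% of all genes fell and 10.7% rose. The median log2 change was -1.10 against -0.19 over all genes. In OCKS-treated MEFs 11 of 25 fell and 3 rose, while 14.0% of all genes fell and 11.2% rose, with a median of -1.06 against -0.17. With the spike-in scaling the OS counts were 8 lower and 5 higher, and the OCKS counts 10 lower and 3 higher. Over all genes that scaling gave 605 lower and 4131 higher of 16266 with OS, and 1098 lower and 2270 higher of 16158 with OCKS. Ccn4, a secreted matricellular protein first described as Wnt-induced, averaged -1.28 in OS-treated MEFs, -1.69 in OCKS-treated MEFs and 4.93 in control MEFs (n = 3 each). It was 74.0-fold lower with OS (SE 0.243 on the log2 scale, adjusted p = 2.69e-08) and 98.2-fold lower with OCKS (SE 0.243, adjusted p = 1.67e-08), with no overlap of either group with the control arrays. Rnf43, a ubiquitin ligase that removes Frizzled receptors, fell by 2.90 and 2.39 on the log2 scale with OS and OCKS. Its paralog Znrf3 fell by 1.30 and 1.15, though with the spike-in scaling by 0.50 and 0.83 and with no call. Other targets went the other way. Among them is Myc, which the OCKS vector carries by the labels, and which rose by 1.57 with OS and 1.30 with OCKS. Sp5, a transcription factor gene, was not well above background on any control MEF array and was at least 16.3-fold higher with OS, at least 21.4-fold higher with OCKS and at least 114-fold higher in PGCs. For such a bound, each array of the dimmer group was given the lowest signal that counted as well above background, or the gene's own where that was higher, and the group means were then compared. Ascl2, a transcription factor of intestinal stem cells, was 8.61-fold higher with OS and 8.11-fold higher with OCKS. In PGCs 9 of 26 targets rose and 9 fell, against 8 and 10 with the spike-in scaling. Without that scaling 30.2% of all genes rose and 26.1% fell there, near the shares of the targets.

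**Figure D3:**
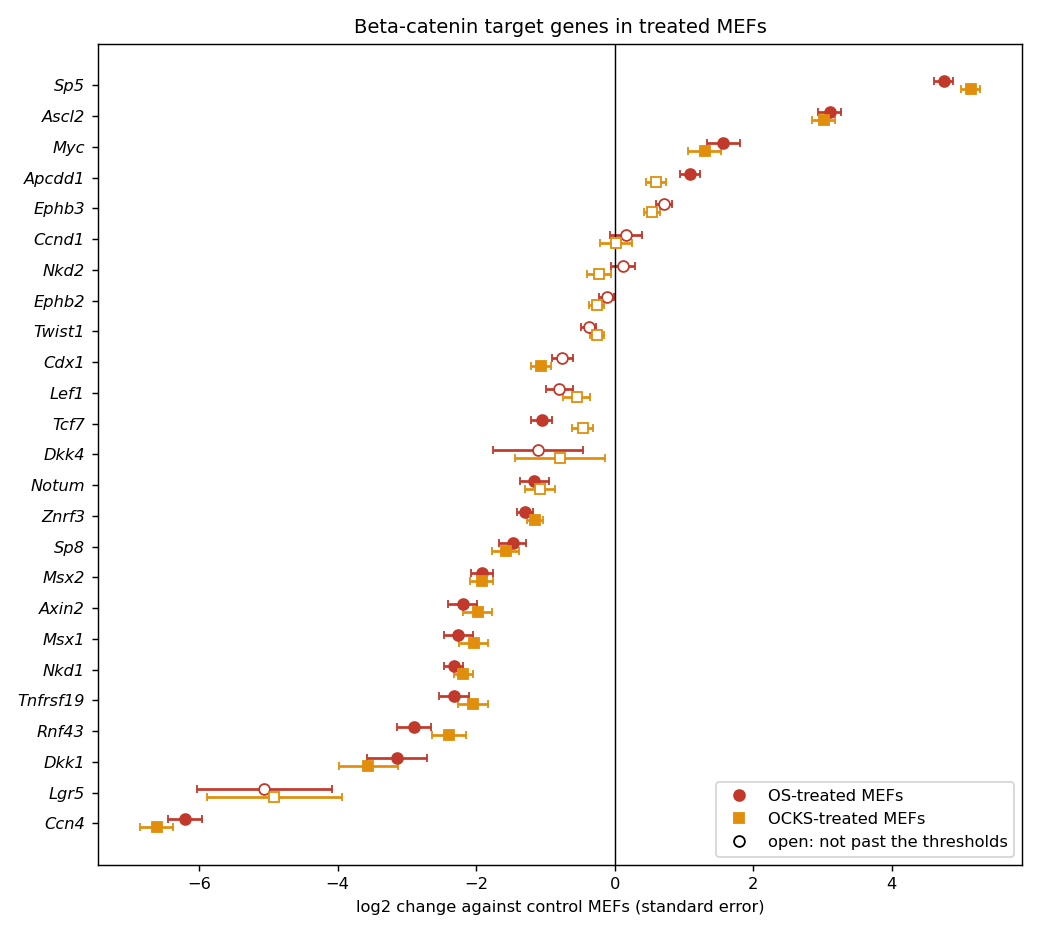
Log2 change, with its standard error, of the 25 beta-catenin target genes tested in both OS-treated MEFs (circles) and OCKS-treated MEFs (squares) against control MEFs, filled where past the thresholds. Ccn4 is the lowest at -6.21 and -6.62 and Sp5 the highest at 4.75 and 5.15. Dkk1 in treated MEFs and Sp5 in control MEFs were not well above background, so the size of their changes is not measured.

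The regions just upstream of Wnt4, Axin2 and Nkd1, the genes that fell with both treatments, are shown beside that of Sp5, a target that rose. CTTTGA, a form of the TCF/LEF core motif, was looked for, and other forms were not. No target outside the 10 besides Sp5 was looked at by name, so the windows do not compare risen with fallen targets. The 250 bases before the start site were taken from the RefSeq promoter table (GRCm38.p6), which had an entry for 6 of the 10 genes and none for Lgr5, Dkk3, Notum and Wnt5a. Capitals mark CTTTGA, searched on both strands (TCAAAG on the other), which 13.8% of 32851 such windows hold and of which 1.37% hold 2 or more.
Wnt4 (chr4:137277385-137277634, plus strand): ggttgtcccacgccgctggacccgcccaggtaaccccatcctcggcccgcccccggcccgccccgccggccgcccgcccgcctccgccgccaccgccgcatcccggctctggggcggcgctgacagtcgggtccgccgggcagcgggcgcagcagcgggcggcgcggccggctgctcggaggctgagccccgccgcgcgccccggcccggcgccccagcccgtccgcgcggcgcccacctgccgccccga
Axin2 (chr11:108920099-108920348, plus strand): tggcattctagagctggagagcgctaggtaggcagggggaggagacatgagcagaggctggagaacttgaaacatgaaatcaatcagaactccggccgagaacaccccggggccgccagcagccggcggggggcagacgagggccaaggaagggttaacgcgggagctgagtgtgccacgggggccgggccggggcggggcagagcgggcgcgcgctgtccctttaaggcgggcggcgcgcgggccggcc
Nkd1 (chr8:88527383-88527632, plus strand): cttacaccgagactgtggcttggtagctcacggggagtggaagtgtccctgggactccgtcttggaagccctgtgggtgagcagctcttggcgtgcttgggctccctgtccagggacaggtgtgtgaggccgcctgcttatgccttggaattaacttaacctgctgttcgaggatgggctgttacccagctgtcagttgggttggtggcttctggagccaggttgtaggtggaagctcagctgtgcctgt
Sp5 (chr2:70474673-70474922, plus strand): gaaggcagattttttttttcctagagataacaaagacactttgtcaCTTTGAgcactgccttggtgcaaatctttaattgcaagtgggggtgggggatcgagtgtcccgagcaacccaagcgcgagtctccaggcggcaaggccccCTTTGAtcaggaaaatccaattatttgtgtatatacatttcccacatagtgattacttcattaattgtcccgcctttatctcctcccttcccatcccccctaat
The windows of Wnt4, Axin2 and Nkd1 held 0 copies and that of Sp5 held 2, starting 204 and 104 bases before the start site. Of the windows of Lef1, Tcf7 and Dkk2, 1 of the 4 of Lef1 held 2 copies and the others 0. Counts of CpG dinucleotides, the sites of the DNA methylation that Dnmt1 maintains, were 44 for Wnt4, 24 for Axin2, 6 for Nkd1 and 6 for Sp5, against a median of 6 over all windows. A match is a run of letters and no evidence of binding, and the absence of one says nothing of other windows.

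The other layers of the pathway were followed through 8 further lists of genes. In OS-treated MEFs 6 of the 8 lists had more genes lower than higher, but 1 did with the spike-in scaling. Calls over all genes moved too with that scaling, from 2055 to 605 lower and from 1746 to 4131 higher with OS. With OCKS they moved from 2255 to 1098 lower and from 1813 to 2270 higher. Without it the shares over all genes were 12.6% lower and 10.7% higher with OS, and 14.0% and 11.2% with OCKS. Of the Wnt ligands, 15 of 19 were tested in OS-treated MEFs, where 5 fell and 2 rose (median -1.10), and in OCKS-treated MEFs, where 6 fell and 3 rose (median -1.18). With the spike-in scaling 3 fell and 3 rose in both. Wnt9a, a ligand of skeletal development, measured -2.15, -1.72 and -1.35 in OS-treated MEFs, -1.42, -1.73 and -1.28 in OCKS-treated MEFs, and 1.70, 1.45 and 2.00 in control MEFs, and was 11.0-fold lower with OS and 9.18-fold lower with OCKS. Wnt5b, the paralog of Wnt5a, rose 4.92-fold with OS and 4.53-fold with OCKS, and Wnt6 rose 3.28-fold and 6.05-fold. In PGCs Wnt6 was 62.8-fold higher. Wls, which carries Wnt proteins to the cell surface, fell by 1.88 with OS (by 1.09 and with no call under the spike-in scaling) and by 1.78 with OCKS, and was 129-fold lower in PGCs.

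Among 17 receptors and co-receptors OS left 6 lower and 1 higher, and OCKS 5 lower and 2 higher. Of all genes tested, 12.6% were lower and 10.7% higher with OS, and 14.0% and 11.2% with OCKS. Spike-in scaling turned the OS counts to 1 lower and 3 higher, and the OCKS counts were 2 lower and 2 higher. Fzd2, a Frizzled receptor, fell by 2.10 and 2.11, while Fzd4, another, rose by 2.08 with OCKS. Ror2, the receptor of Wnt5a, changed by 0.30 with OS and 0.44 with OCKS without passing the thresholds and was 21.0-fold lower in PGCs, where Wnt5a was lower too. Among the 20 genes listed as secreted and surface antagonists, which include Dkk2, Notum and the divergent Dkk3, 3 of 17 tested fell and 3 rose with OS. With OCKS 2 fell and 2 rose, and in PGCs 11 of 18 fell and 2 rose, where 26.1% of all genes fell and 30.2% rose. Scaled by spike-ins, 1 was lower and 3 were higher with OS. Dkk1, also an antagonist of Lrp5 and Lrp6 and a beta-catenin target, was not well above background on any array of treated MEFs or PGCs and was at least 5.55-fold lower with OS, at least 4.39-fold lower with OCKS and at least 6.63-fold lower in PGCs. Igfbp4, which binds insulin-like growth factors and can block Frizzled, rose 7.14-fold with OS and 8.17-fold with OCKS.

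Ctnnb1, which encodes beta-catenin, measured 2.41, 2.31 and 2.31 in OS-treated MEFs, 2.03, 2.21 and 2.13 in OCKS-treated MEFs, 2.66, 2.63 and 2.68 in PGCs, and 3.21, 3.19 and 3.24 in control MEFs. It fell by 1.09 on the log2 scale with OCKS, and its change with OS, -0.87, was under the 2-fold minimum, as the OCKS change was with the spike-in scaling (-0.77). Among the 22 genes of the destruction complex and the cytoplasmic transducers, 5 fell and 0 rose with either treatment. They include Axin2, Nkd1 and Dact1, a Dishevelled-binding protein, which fell by 2.98 with each. Over all genes tested 12.6% fell and 10.7% rose with OS, and 14.0% and 11.2% with OCKS. Scaled by spike-ins, 3 of the 22 fell with OS and 4 with OCKS. In PGCs 6 of the 22 rose and 4 fell, while 30.2% of all genes rose and 26.1% fell. The counts turned to 5 higher and 8 lower with the spike-in scaling, and Axin1, the paralog of Axin2, was 4.16-fold higher. Among the 15 TCF/LEF factors and co-regulators 2 fell and 2 rose with OS, while OCKS gave 1 lower and 2 higher. Pygo1, which joins beta-catenin to the transcription machinery, was not well above background on any array of treated MEFs, at least 6.35-fold lower with OS and at least 5.02-fold lower with OCKS, and 11.4-fold higher in PGCs. Tle2, a co-repressor of the Groucho family, rose 2.79-fold and 3.21-fold.

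Of the 9 R-spondins, receptors and Frizzled ubiquitin ligases, 2 fell and 1 rose with OS, while OCKS gave 2 lower and 0 higher. The shares over all genes were 12.6% lower and 10.7% higher with OS, and 14.0% and 11.2% with OCKS. The R-spondin gene Rspo4 rose by 3.16 with OS. Rspo3, which encodes a ligand of Lgr5, changed by -0.03 with OS and -0.12 with OCKS, and was 131-fold lower in PGCs. Of the 18 genes of planar polarity and the Wnt5a pathway tested, 6 fell and 0 rose with OS and with OCKS, but with the spike-in scaling 0 fell and 1 rose with each. In PGCs 10 fell and 3 rose, while 26.1% of all genes fell and 30.2% rose.

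**Figure D4:**
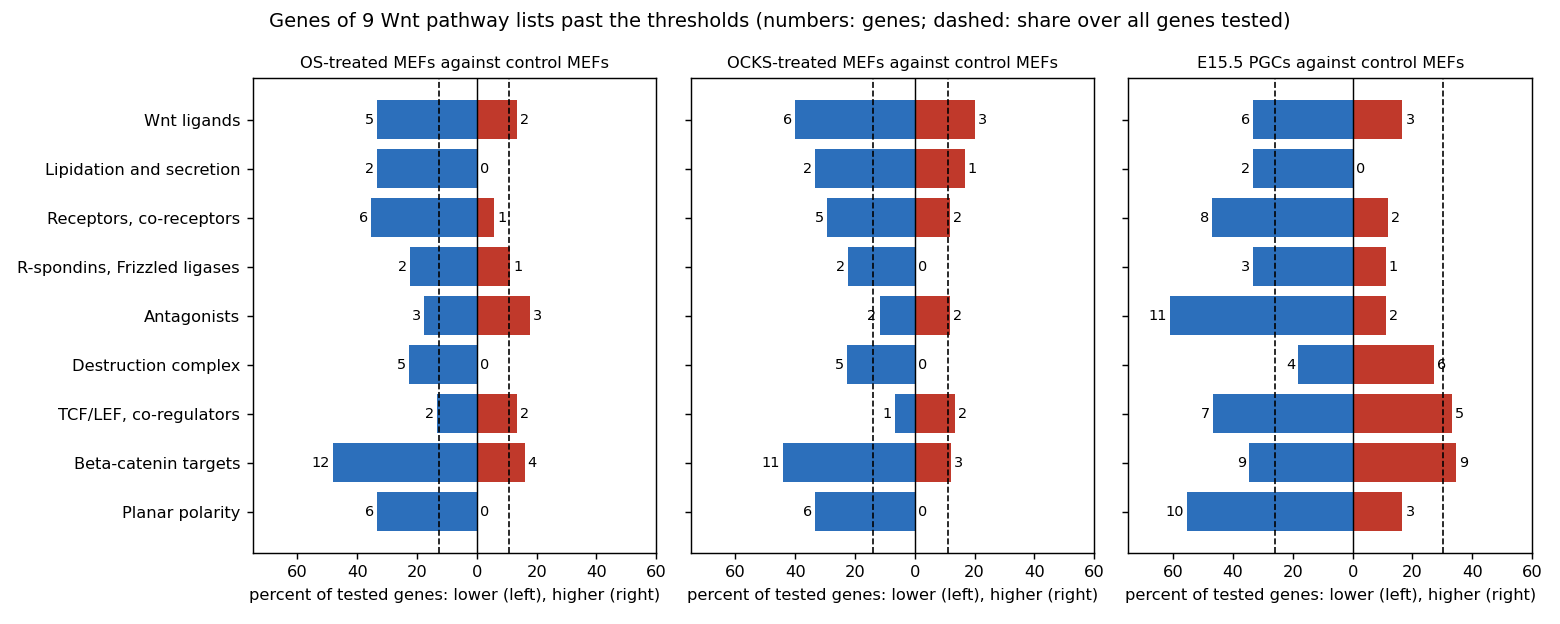
Share of the tested genes of 9 Wnt pathway lists that were lower (left) and higher (right) past the thresholds in OS-treated MEFs, OCKS-treated MEFs and E15.5 PGCs against control MEFs, with the number of genes at each bar and the share over all genes tested as dashed lines. Beta-catenin targets have 12 and 11 genes lower with OS and OCKS, and antagonists have 11 lower in PGCs.

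Genes whose profile over the 12 arrays was most like that of a member were found by the root mean square difference of centred log2 signals, among 17560 genes. Axin2 was nearest to Ttll5 (0.23), Gas2 (0.25) and Ciart (0.27), and Nkd1 to Tmsb15a (0.23), Gja10 (0.26) and Tnfrsf19 (0.29), itself on the list of beta-catenin targets. Wnt4 was nearest to Pcp4l1 (0.32), Fgf5 (0.39) and Il7r (0.42). Lgr5 had no close match, with Wnt4 (0.92), Mdga1 (0.92) and Tbxa2r (0.94) as the nearest. Notum was nearest to Prkd1 (0.15), Ftdc2 (0.15) and Alcam (0.17), Tcf7 to F8 (0.19), Acer3 (0.22) and Tuft1 (0.22), and Lef1 to Ficd (0.17), Vkorc1l1 (0.18) and Adgra3 (0.18). For Wnt5a, Dkk2 and Dkk3, called in PGCs and not with OS or OCKS, the nearest were Lratd2 (0.22), Rin1 (0.23) and S1pr2 (0.23) for Wnt5a, Csf1 (0.30), Ankrd1 (0.36) and Zfp365 (0.36) for Dkk2, and Zfhx4 (0.27), Fosl2 (0.30) and Apbb1ip (0.33) for Dkk3.

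Markers of several other cell types moved with the groups. In bulk RNA a smaller number of cells of a type and less RNA per cell cannot be told apart. Of all genes tested, 12.6% were lower and 10.7% higher with OS, and 14.0% and 11.2% with OCKS. In PGCs 26.1% were lower and 30.2% higher. All 9 leukocyte markers on the array fell with both treatments, with a summed signal (in units of the 75th percentile of the array) of 1.42 to 1.78 in OS-treated MEFs, 1.10 to 1.42 in OCKS-treated MEFs and 9.34 to 15.3 in control MEFs, and Cx3cr1 was not above background in either treated group. All 7 smooth muscle markers fell (6 with the spike-in scaling), at 4.73 to 6.25 with OS, 3.92 to 14.5 with OCKS and 507 to 691 in control MEFs. All 8 adipocyte markers rose, at 121 to 192 with OS, 178 to 230 with OCKS and 4.53 to 5.16 in control MEFs. Of 10 fibroblast markers 3 fell and 3 rose with each treatment (by spike-ins, 0 lower and 4 higher with OS, and 2 lower and 3 higher with OCKS), at 335 to 517 with OS, 236 to 484 with OCKS and 397 to 576 in control MEFs. In PGCs all 10 fibroblast markers fell, at 4.39 to 5.58, and 9 of 10 germ cell markers rose, at 232 to 301 in PGCs against 1.01 to 1.14 in control MEFs. The germ cell markers moved in treated MEFs too, where 6 of 9 tested rose and 1 fell with each treatment, at 1.22 to 1.40 with OS and 1.42 to 1.61 with OCKS. Ovarian somatic markers were measured in PGCs as well, with 6 of 12 higher and 5 lower than in control MEFs (3 and 5 with the spike-in scaling). Their summed signal was 28.3 to 33.0 in PGCs against 37.9 to 41.5 in control MEFs. Amhr2 and Gata4 rose most, by 6.30 and 3.54, and Fst, Krt19 and Upk3b fell most, with changes of -4.51, -4.14 and -3.6. The part of these cell types in the values of the 10 genes was not tested.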

How the data were processed

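RNA from 3 biological replicates of OS-treated MEFs, OCKS-treated MEFs, E15.5 female PGCs and control MEFs was hybridized to 12 single-colour arrays on 6 slides. The authors deposited each array's scanner output from Feature Extraction 10.7.3.1, with background-subtracted spot intensity and no scaling between arrays. A second deposited table holds log2 values centred per probe, and its normalization is not given in the sources used here. Of its 12 columns, 10 match their arrays (those of PGC replicates 2 and 3 do not) and it served only as an alternative.

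Of 39429 probes that are not controls, 83 with uneven spots were left out. RefSeq accessions named 25992 of the remaining 39346 probes, for 19718 genes. The 75th percentile of the signal was 1043 to 2690 per array and the median background 23.0 to 33.5. Precision is limited by the number of arrays. Log2 signals were taken relative to the 75th percentile of the array, and the brightest probe represented a gene. All 12 arrays entered 1 limma 3.58.1 fit in R 4.3.3, without covariates. Tests covered genes that every array of at least 1 of the 2 groups measured well above background. The test was checked on simulated data. The members and lists were chosen with earlier results of these data known. From each pathway list, up to 4 genes with the largest change in treated MEFs and up to 2 in PGCs were picked. Besides all 10 members, the text names some of these genes, not all, and the 3 nearest profiles of each member. A few other genes were chosen after their values were seen. Alternatives were quantile normalization, normexp (offset 50) with quantile normalization, median, detected-probe and spike-in scaling (8 probes), other filters, the mean of a gene's probes, a fit of the 2 groups, replicate or slide as a block, the value table, a looser threshold (adjusted p under 0.05) and leaving out each array. Deviations from the group means of samples with the same replicate number correlated at over 0.1 in 6 of 18 pairs of arrays (r between -0.342 and 0.509, the highest for replicate 1 of PGCs and control MEFs). No 2 groups had all 3 pairs over 0.1, so the number was not taken to pair the samples. Figures were drawn with matplotlib 3.10.9 under Python 3.11.15.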

Additional observations from a re-analysis of the deposited data

How the results depend on the processing

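Wnt4, Axin2 and Nkd1 remained past the thresholds in OS-treated MEFs under every alternative, and Wnt4 and Nkd1 in OCKS-treated MEFs, where Axin2 stayed at -0.998, just under 2-fold with normexp and quantile normalization. The number of members called with OS was 3 with quantile normalization and with the 75th percentile of detected probes only, against 5, and 6 members were called with OCKS at an adjusted p under 0.05, against 3. Leaving out 1 array at a time gave 3 to 6 members called with OS, 3 to 4 with OCKS, 0 between OCKS and OS, and 6 to 8 in PGCs. With the replicate number as a block, 4 members were called with OS, 3 with OCKS, 0 between the treatments and 6 in PGCs, where Lgr5 (adjusted p = 0.00196) and Notum (0.00226) dropped out. Over all genes, OCKS against OS gave 1 call with quantile normalization, median scaling, spike-in scaling and the deposited value table, 2 with normexp, 7 at an adjusted p under 0.05, and 0 to 32 without 1 array.

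Members that turned sign were all short of the thresholds. With OS, Dkk3 was at 0.039 with quantile normalization, 0.030 with normexp and 0.68 with spike-ins, and Dkk2 at 0.13 with spike-ins. With OCKS, Dkk3 was at 0.059, 0.088 and 0.24 under the same 3 settings. Between OCKS and OS, Dkk3 was at -0.0085 with median scaling, and spike-ins put Axin2 at -0.25, Nkd1 at -0.33, Lgr5 at -0.33, Notum at -0.38, Lef1 at -0.22 and Dkk3 at -0.44. With the slide as a random block Lgr5 was at -0.16 and Dkk3 at -0.059, and as a fixed block, which leaves 1 pair of arrays, Axin2 was at -0.21, Nkd1 at -0.14, Lgr5 at -2.13 and Dkk3 at -0.61. In PGCs, Lef1 was at 0.043 with the 75th percentile over detected probes and 0.12 with the value table. Leaving out 1 array gave ranges across 0 for Wnt5a (-0.075 to 0.18) and Dkk3 (-0.30 to 0.11) with OS, Dkk3 (-0.40 to 0.20) with OCKS, Lgr5 (-1.16 to 1.15), Dkk3 (-0.29 to 0.32) and Notum (-0.17 to 0.37) between the treatments, and Lef1 (-0.14 to 0.11) in PGCs. The cause of these changes was not tested.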
